A study of Mus musculus with 6 samples.

Results

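The N-methyl-D-aspartate (NMDA) receptor is a channel opened by glutamate, and the genes described here encode its subunits. The 6 members, Grin1, Grin2a, Grin2b, Grin2c, Grin2d and Grin3a, were taken by their gene symbols. All 6 were among the 16060 rows of the deposited table, and all 6 were among the 13321 genes that passed a filter on low values. None of the 6 passed the threshold between MA-treated and control mice after adjustment over all tested genes (limma). Grin2a was lower in each MA library than in each control library, by a mean of 0.35 on the log2 scale, and this was the smallest p of the 6. Of all tested genes, 17.5% had groups that did not overlap, 10.2% lower in the MA group, and 846 had a smaller p than Grin2a.

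The receptor is built from obligate GluN1 subunits, encoded by Grin1, together with GluN2 subunits (Grin2a to Grin2d) or GluN3 subunits (Grin3a and Grin3b). GluN1 and GluN3 bind glycine or D-serine, GluN2 binds glutamate, and the channel of GluN1 and GluN2 passes calcium once depolarization relieves its magnesium block. In the adult hippocampus, GluN2A and GluN2B are the usual partners of GluN1 in principal neurons, and the channel is best known there for its role in long-term potentiation. GluN2C is known from cerebellar granule cells, the thalamus and astrocytes, and GluN2D from the thalamus, the brainstem and interneurons.

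Hippocampal RNA came from adult male C57BL/6 mice, with 3 libraries of the control group and 3 of the group given methamphetamine (MA), a psychostimulant that releases dopamine. The control mice were injected with saline intraperitoneally. In the MA mice the dose was raised weekly, from 5 mg/kg in week 1 to 10 mg/kg in week 2 and 15 mg/kg in week 3. Both groups went through open field and elevated plus maze tests on day 22 and were killed straight afterwards, so the groups share the test exposure. No genotype other than the strain was given, and the hippocampus was taken as bulk tissue. In such tissue, fewer cells of a type and less RNA per cell cannot be told apart.

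The table gives log2 values per gene length, brought to nearly the same distribution in all 6 libraries, and a level below means such a value unless it is called back-transformed. Read totals are not part of it, so the depth of the libraries is unknown. MA replicate 3 stood apart from the other libraries. Its mean Pearson correlation with the other MA libraries across tested genes was 0.978, while the other 5 libraries lay between 0.984 and 0.993 with their own groups. Genes are not independent replicates, so these values describe the libraries only. The fold changes of the subunit genes are therefore also given without MA replicate 3.

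Markers of other tissues also moved with the groups. All 9 choroid plexus markers were higher in the MA libraries, and 5 of them rose past the adjusted threshold of 0.05 (limma). These 5 were Folr1, Kl, Aqp1, Clic6 and Slc4a5. Ttr, the transthyretin gene and the most abundant of the 9, did not pass (limma adjusted p = 0.0887) and was at 5.87, 7.39 and 8.68 in control replicates 1, 2 and 3 and at 10.8, 11.1 and 12.3 in MA replicates 1, 2 and 3. The back-transformed levels of the 9 markers summed to between 66.0 and 421 in the control libraries and between 1782 and 5085 in the MA libraries. Ttr held the top value of the table in MA replicate 3, and that top value is the same in all 6 libraries, so the sum there is limited by the common distribution. The globin genes Hba-a1, Hba-a2 and Hbb-bs rose as well, by 1.13, 1.06 and 0.97 on the log2 scale (limma adjusted p = 0.0315, 0.0327 and 0.0394). Hba-a1 and Hba-a2 are near-identical copies, so how reads were split between them is uncertain. No choroid plexus or erythrocyte marker was at 0 in any library, but at most 437 of the 16060 rows were at 0 in any single library. The part of these markers in the differences given below was not tested.

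Hippocampal neurons were well represented. Neurod6, which marks pyramidal cells, was at 6.08 to 6.49 in the control and 5.74 to 5.97 in the MA libraries, and Wfs1, another pyramidal marker, at 5.15 to 5.39 and 4.81 to 5.11. The groups did not overlap for either gene, with log2 fold changes of -0.43 and -0.30 (limma adjusted p = 0.290 and 0.413). Prox1, which marks dentate granule cells, was at 3.26 to 3.67. Of the 8 excitatory neuron markers, 0 passed the adjusted threshold (limma). A lower mean in the MA libraries was seen for 7 of these 8, against 52.7% of all tested genes. Neurod6 and Wfs1 were the 2 with an unadjusted p under 0.05, a mark reached by 10.4% of all tested genes. The 8 had a median log2 fold change of -0.20. Nrgn, the most abundant, had one of -0.12, and Slc17a7, the 1 with a higher mean, had one of 0.06. The groups overlapped for both genes (limma adjusted p = 0.654 and 0.863). Gabra6 and Fat2, which mark cerebellar granule cells, fell under the filter and were listed at 0 in at least 1 library, and Cbln3 also fell under it. Of the other 4 cerebellar markers, Zic1, Cbln1 and Zic2 had log2 fold changes of 0.82, 0.73 and 0.34 and were highest in MA replicates 1 and 2, and Neurod1 had one of -0.13. None passed the adjusted threshold, and Zic1 had an unadjusted p under 0.05 (limma adjusted p = 0.432).

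The subunit genes spanned a wide range of levels, and their order was nearly the same in every library. Grin1 came first, at 6.73 ± 0.07 (SD, n = 3) in control mice against 6.67 ± 0.05 (SD, n = 3) with MA, higher than 94.1% of tested genes. Grin2a and Grin2b followed at 4.29 ± 0.17 and 4.10 ± 0.16 in the control libraries (SD, n = 3 each). These neighbours did not differ beyond their spread, since Grin2a was above Grin2b in 3 of the 6 libraries and below it in the other 3. Grin2c came next at 3.39 ± 0.08 in the control libraries (SD, n = 3), below Grin2b in 5 of the 6 libraries and above it in MA replicate 3. Grin3a and Grin2d were lowest, at 1.85 ± 0.07 and 1.48 ± 0.09 in the control libraries (SD, n = 3 each). Grin3a was above Grin2d in all 6 libraries, by 0.11 to 0.42, although the ranges of both genes overlapped within the MA group.

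**Figure D1:**
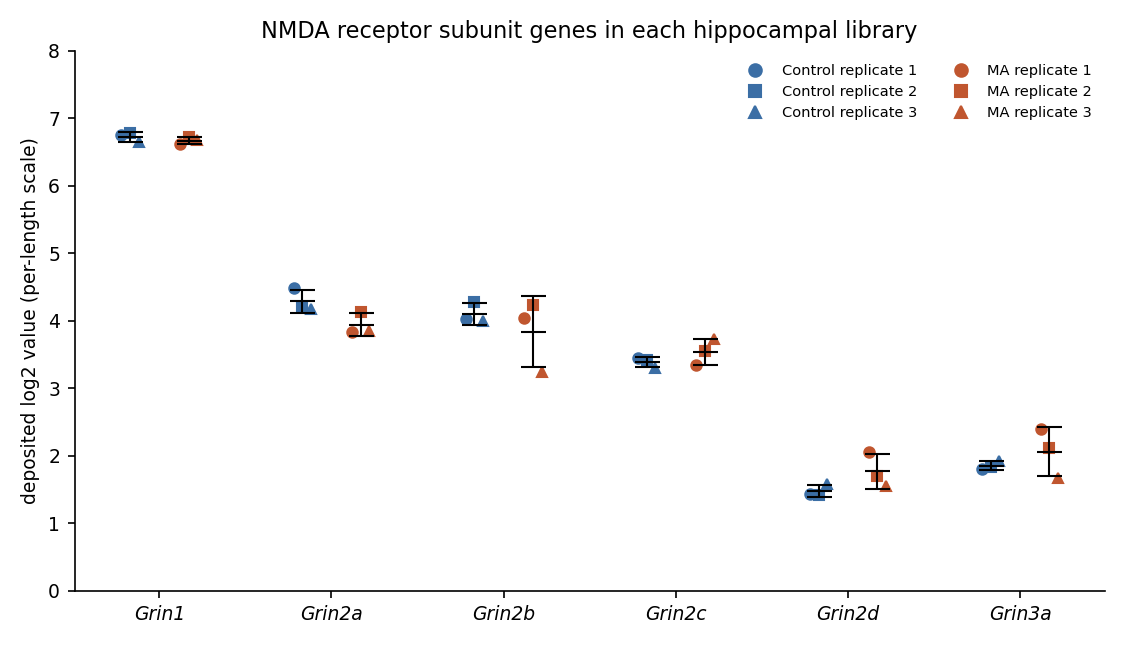
Level of each NMDA receptor subunit gene (deposited log2 value, vertical axis) in the 3 control (blue) and 3 MA (orange) libraries, with the marker shape giving the replicate number and black bars the group mean ± SD. Grin1 sits near 6.7 in both groups, each MA point of Grin2a lies below each control point, and the lowest Grin2b point, at 3.24, is MA replicate 3.

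At the adjusted threshold of 0.05, 0 of the 6 subunit genes passed, against 0.263% of all tested genes (limma with Benjamini-Hochberg adjustment over 13321 genes). An unadjusted p under 0.05 was reached by 1 of the 6, Grin2a, against 10.4% of all tested genes (4.99% higher and 5.46% lower in the MA group). That of Grin2a was at or over 0.05 in 7 of the 17 alternatives run for it, among them the replicate block, sample quality weights and the length and GC correction. The 3 MA libraries lay entirely on one side of the 3 control libraries for 1 of the 6, again Grin2a, against 17.5% of all tested genes (7.32% higher and 10.2% lower). Both shares rest on a single gene, which is too few to set the family apart from the background. Grin1, Grin2a and Grin2b had lower means in the MA group and Grin2c, Grin2d and Grin3a higher ones, with a median log2 fold change of 0.048 over the 6 and of -0.010 over all tested genes.

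Grin1 (ENSMUSG00000026959), the gene of the subunit that every NMDA receptor needs, occupies bases 25291181 to 25319187 of chromosome 2 (GRCm38, minus strand), and all positions below use this build. It was at 6.75, 6.79 and 6.64 in control replicates 1, 2 and 3 and at 6.61, 6.72 and 6.67 in MA replicates 1, 2 and 3. The groups overlapped, with MA replicates 2 and 3 inside the control range and MA replicate 1 just below it. The log2 fold change was -0.06 (standard error 0.08, 95% interval -0.23 to 0.12, limma adjusted p = 0.853), and it was also -0.06 without MA replicate 3. Grin1 was the steadiest member in the MA group, where 9.29% of tested genes had an SD as small or smaller. The antisense gene Grin1os shares 1307 exonic bases with it, and the counting is not stated to use strand. Grin1os was at 0.64 to 1.00 in the 6 libraries, far below Grin1.

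Grin2a (ENSMUSG00000059003) encodes GluN2A, the GluN2 subunit that gains ground in the forebrain after birth and gives receptors with fast decay. It lies on chromosome 16 from 9567898 to 9995560 on the minus strand. The levels were 4.49, 4.20 and 4.18 in control replicates 1, 2 and 3 and 3.83, 4.13 and 3.85 in MA replicates 1, 2 and 3. Each MA library was below each control library, but MA replicate 2 came close to the lower control libraries. The log2 fold change was -0.35 (standard error 0.13, 95% interval -0.65 to -0.06). The back-transformed levels were 18.6 ± 2.41 (SD, n = 3) in control mice against 14.4 ± 1.87 (SD, n = 3) with MA. It did not pass the threshold (limma adjusted p = 0.408), and 846 tested genes had a smaller p. The exact two-sided permutation test gave p = 0.1, the smallest value that 3 libraries against 3 allow. Without MA replicate 3 the log2 fold change was -0.31 (limma adjusted p = 0.225). Without control replicate 1, the highest library, it was -0.25 (limma adjusted p = 0.856). The log2 fold changes of Neurod6 and Wfs1, 2 markers added after the values were seen, had the same sign and a similar size. Those of the 8 excitatory neuron markers had a median of -0.20, with Nrgn at -0.12 and Slc17a7 at 0.06. The part of pyramidal cell RNA in the Grin2a value was not tested.

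Grin2b (ENSMUSG00000030209), on chromosome 6 from 135713233 to 136173511 on the minus strand, encodes GluN2B, which prevails early in life, gives receptors with slower decay and binds CaMKII. Its levels were 4.02, 4.28 and 4.003 in control replicates 1, 2 and 3. They were 4.04, 4.24 and 3.24 in MA replicates 1, 2 and 3. MA replicates 1 and 2 lay within the control range, and MA replicate 3 was below every other library. The SD of Grin2b in the MA group was 0.53, as large as or larger than that of 96.4% of tested genes, and in the control group it was 0.16. The log2 fold change was -0.26 (standard error 0.24, 95% interval -0.84 to 0.31, limma adjusted p = 0.766), and without MA replicate 3 it turned to 0.034. The lower mean of Grin2b in the MA group thus came from 1 library.

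**Figure D2:**
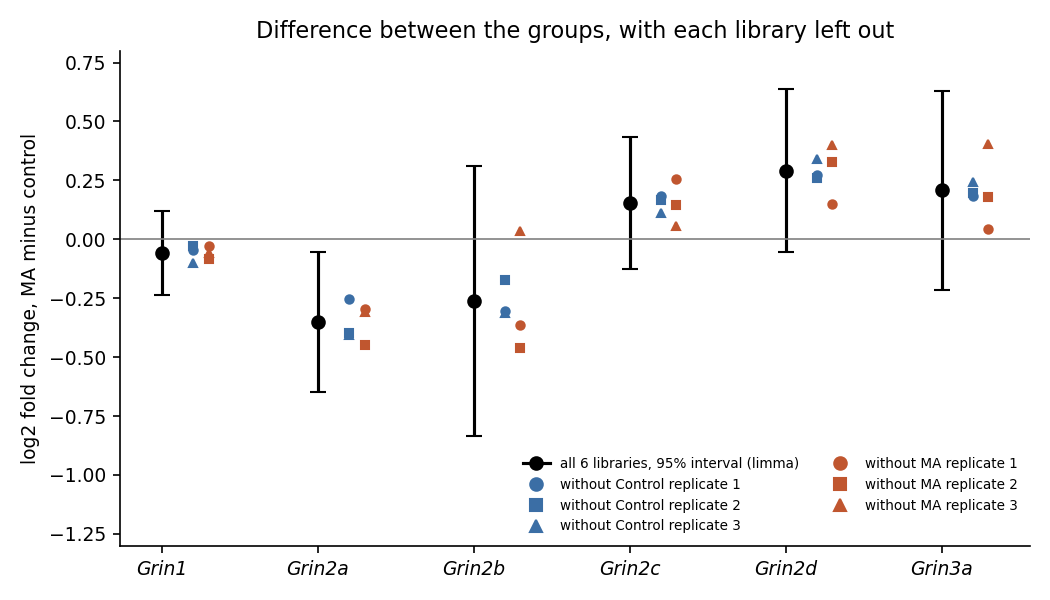
Log2 fold change of each subunit gene (MA minus control, vertical axis). Black points with bars give the value over all 6 libraries with its 95% interval from limma, and coloured points give the value after 1 library was left out. The interval of Grin2a, from -0.65 to -0.06, is the only 1 of the 6 that does not cross 0, and the Grin2b value moves to 0.034 without MA replicate 3.

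Grin2c and Grin2d encode the GluN2 subunits with weaker magnesium block. Grin2c (ENSMUSG00000020734), on chromosome 11 from 115249169 to 115267243 on the minus strand, was at 3.44, 3.41 and 3.30 in control replicates 1, 2 and 3. In MA replicates 1, 2 and 3 it was at 3.34, 3.55 and 3.73. MA replicate 3, the library with the lowest Grin2b, held the highest Grin2c, and MA replicate 1 lay within the control range. The log2 fold change was 0.15 (standard error 0.12, 95% interval -0.13 to 0.43, limma adjusted p = 0.718), and it was 0.058 without MA replicate 3 and 0.25 without MA replicate 1. Aldoc, the most abundant of the 8 astrocyte markers, was 0.10 higher on the log2 scale (limma adjusted p = 0.744), and 2 of the 8 were higher and 6 lower in the MA libraries, with 0 past the adjusted threshold and 2 with an unadjusted p under 0.05 (limma). The summed back-transformed level of these 8 markers was lowest in MA replicate 3, at 856, against 977 to 1176 in the other libraries. Long genes were lower in that library, as given below, and the part of astrocyte RNA in the Grin2c value was not tested.

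Grin2d (ENSMUSG00000002771), on chromosome 7 from 45831883 to 45878378 on the minus strand, was at 1.44, 1.42 and 1.58 in control replicates 1, 2 and 3 and at 2.06, 1.70 and 1.56 in MA replicates 1, 2 and 3. MA replicates 1 and 2 were above every control library, and MA replicate 3 was within the control range. The log2 fold change was 0.29 (standard error 0.15, 95% interval -0.05 to 0.64, limma adjusted p = 0.560). Without MA replicate 3 it was 0.40 (limma adjusted p = 0.154) and without MA replicate 1 it was 0.15. The antisense gene Gm45441 shares 643 exonic bases with Grin2d and is not among the rows of the table.

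Grin3a (ENSMUSG00000039579) encodes GluN3A, which lowers the calcium permeability of receptors that hold it and is known from immature synapses. It lies on chromosome 4 from 49661611 to 49845744 on the minus strand. The levels were 1.80, 1.83 and 1.92 in control replicates 1, 2 and 3 and 2.39, 2.11 and 1.67 in MA replicates 1, 2 and 3. MA replicates 1 and 2 were the highest of all 6 libraries, and MA replicate 3 was the lowest. The log2 fold change was 0.21 (standard error 0.18, 95% interval -0.22 to 0.63, limma adjusted p = 0.749). Without MA replicate 3 it was 0.40 (limma adjusted p = 0.115), and without MA replicate 1 it was 0.042 (limma adjusted p = 0.961). The fit without MA replicate 3 gave an unadjusted p under 0.05 for Grin2d and Grin3a, and for 23.3% of all tested genes. The other members did not reach it there.

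For Grin2d and Grin3a alike, MA replicate 1 was highest and MA replicate 2 next, while MA replicate 3 lay within the control range for Grin2d and below it for Grin3a. Markers of the thalamus, which adjoins the hippocampus, were also mostly higher in MA replicates 1 and 2. All 8 had a higher mean in the MA group, while 52.7% of all tested genes had a lower one. Of the 8, 0 passed the adjusted threshold and 2 had an unadjusted p under 0.05 (limma), a mark reached by 10.4% of all tested genes. The back-transformed levels of these 8 markers summed to 41.5, 40.7 and 63.5 in control replicates 1, 2 and 3 and to 123, 120 and 60.9 in MA replicates 1, 2 and 3. Calb2, the calretinin gene and the most abundant of them, was at 3.69 to 4.87 in the control and 5.21 to 5.98 in the MA libraries. Tcf7l2, a defining thalamic transcription factor, was at 1.66, 1.15 and 2.43 in control replicates 1, 2 and 3 and at 3.21, 3.08 and 1.68 in MA replicates 1, 2 and 3. None of the 8 was at 0 in any library, which holds for most genes. Some of these genes are also used by hippocampal cells, and the part of thalamic RNA in the Grin2d and Grin3a values was not tested. Of the 9 interneuron markers, led in level by Cck, 8 had a lower mean in the MA group, against 52.7% of all tested genes. None of the 9 passed the adjusted threshold or had an unadjusted p under 0.05 (limma).

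**Figure D3:**
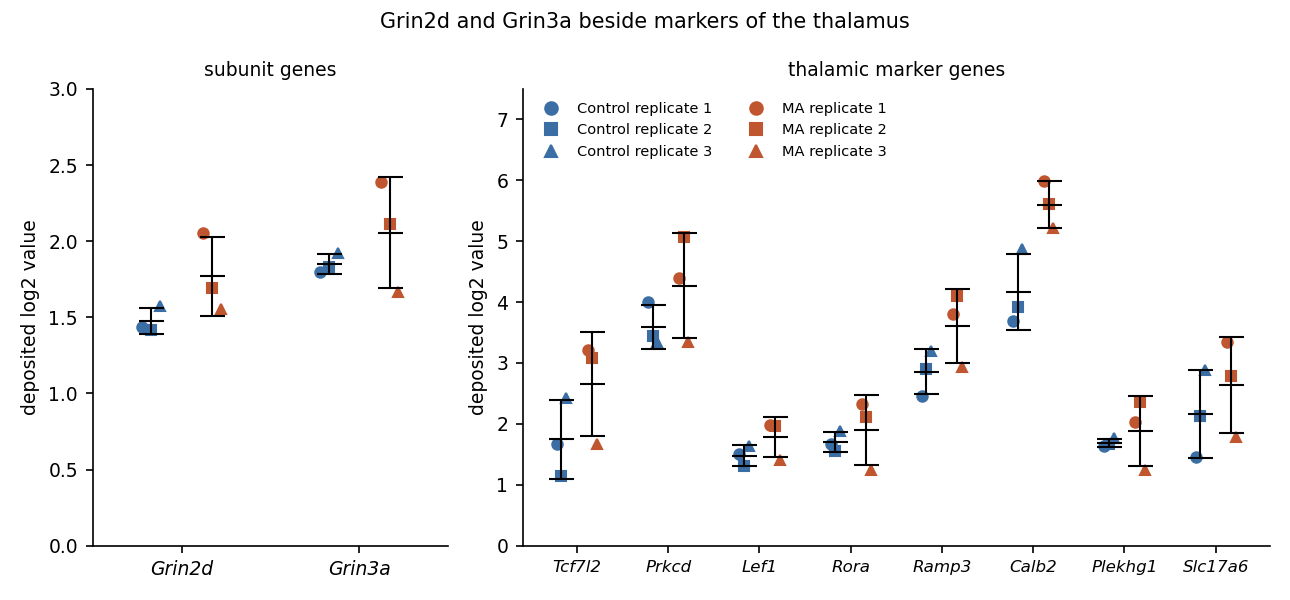
Levels of Grin2d and Grin3a (left) and of the 8 thalamic marker genes (right) as deposited log2 values on the vertical axes, by library, with black bars for the group mean ± SD. In the left panel MA replicate 1 is highest and MA replicate 3 lies at 1.56 and 1.67, and in the right panel MA replicate 3 is the lowest MA point for each marker.

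The balance of the GluN2 genes was taken within each library. The log2 values are read with an offset of 1, so this removes a scaling common to its genes only in part, and less where a gene is low. On the log2 scale, Grin2a minus Grin2b was 0.47, -0.08 and 0.18 in control replicates 1, 2 and 3 and -0.21, -0.10 and 0.61 in MA replicates 1, 2 and 3. The groups overlapped widely. The mean of this difference was 0.09 lower in the MA group (-0.089 as MA minus control, exact two-sided permutation test, p = 0.8), and without MA replicate 3 it was 0.34 lower (-0.34, p = 0.2 in the same permutation test). In that case MA replicates 1 and 2 both lay below the lowest control library, and this exact permutation test cannot go below p = 0.1.

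Against Grin2c, Grin2d and Grin3a, Grin2a stood lower in each MA library than in each control library. Grin2a minus Grin2c was 1.04, 0.79 and 0.88 in control replicates 1, 2 and 3 and 0.49, 0.58 and 0.12 in MA replicates 1, 2 and 3. Grin2a minus Grin2d was 2.60 to 3.05 in the control and 1.77 to 2.44 in the MA libraries. Of the 15 differences between pairs of members, 5 had groups that did not overlap, each with p = 0.1, the smallest the design allows (exact two-sided permutation tests, 0.3 after Benjamini-Hochberg adjustment over the 15). Over all pairs of tested genes, 17.7% of such differences did not overlap. These were Grin2a against Grin1, Grin2c, Grin2d and Grin3a, and Grin1 against Grin2c. They share members, so they are not 5 separate observations.

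Back-transformed and summed, the GluN2 genes reached 48.2, 47.2 and 43.0 in control replicates 1, 2 and 3 and 40.9, 47.3 and 36.1 in MA replicates 1, 2 and 3. Grin1 was 2.21 to 2.32 times this sum in the control libraries and 2.21 to 2.80 times in the MA libraries (exact two-sided permutation test, p = 0.4). Of the GluN2 sum, Grin2a made up 40.4% ± 3.8 (SD, n = 3) in control mice against 34.8% ± 2.5 (SD, n = 3) with MA. Grin2b made up 35.2% ± 3.8 and 32.9% ± 8.2, with the smallest share, 23.5%, in MA replicate 3. The share of Grin2c was close to constant in the control libraries, at 20.5% ± 0.1, and was 22.3%, 22.6% and 34.0% in MA replicates 1, 2 and 3. The share of Grin2d was 3.55%, 3.54% and 4.61% in control replicates 1, 2 and 3 and 7.72%, 4.73% and 5.37% in MA replicates 1, 2 and 3. Exact two-sided permutation tests of the Grin2a, Grin2b, Grin2c and Grin2d shares gave p = 0.2, 0.8, 0.1 and 0.1, or 0.267, 0.8, 0.2 and 0.2 after Benjamini-Hochberg adjustment over the 4 shares.

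**Figure D4:**
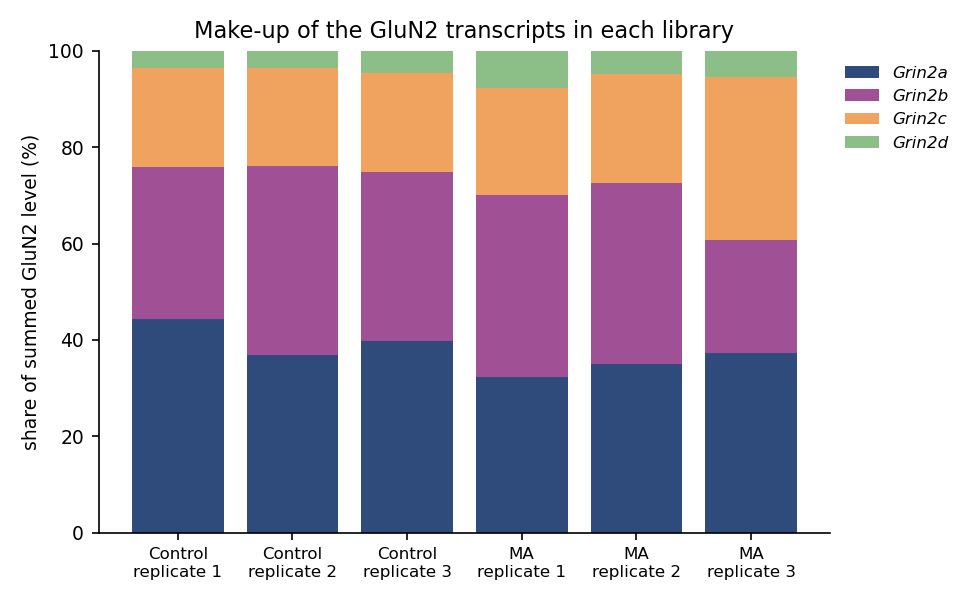
Share of each GluN2 gene in the summed back-transformed GluN2 level (per cent, vertical axis) in each of the 6 libraries. Grin2a and Grin2b together fill most of every bar, the Grin2c part is near 20.5% in the 3 control libraries, and it reaches 34.0% in MA replicate 3, where Grin2b is at 23.5%.

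The departure of MA replicate 3 was not the same for all members and went with transcript length across the table. In that library, the 25% of tested genes with the longest exonic sequence had a median 0.17 below the mean of the other MA libraries on the log2 scale (-0.167). The 25% with the shortest had a median 0.18 above it (0.176). Grin2b, with 24842 exonic bases, was 0.89 below the other MA libraries (-0.893), further down than all but 1.64% of tested genes in that library. Grin3a, with 12275 exonic bases, was 0.58 below them (-0.583). Grin2a, with 17933 exonic bases, was 0.13 below (-0.129), and Grin1, with 9700, was level with them (0.0037). Grin2d, with 6658, was 0.32 below (-0.319). Grin2c, with the shortest exonic sequence of the 6 at 5037 bases, was 0.29 above (0.285), whereas the 25% of genes that hold its length had a median of -0.06 in that library. Correcting every library for exonic length and GC content, an alternative chosen after the data were seen, gave log2 fold changes of -0.10 for Grin1, -0.28 for Grin2a, -0.18 for Grin2b, 0.098 for Grin2c, 0.23 for Grin2d and 0.23 for Grin3a (limma adjusted p from 0.455 for Grin2a to 0.8004 for Grin2c). Grin1 thus lay further from 0 than without the correction, Grin3a slightly further, and the other 4 nearer to 0.

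Genes that act around the receptor were taken as 8 lists with 116 genes in all, of which 114 were tested. None passed the adjusted threshold, and 13 (11.4%) reached an unadjusted p under 0.05 in limma, 4 higher and 9 lower in the MA libraries. The groups did not overlap for 16 of the 114, or 14.0%, 4 higher and 12 lower. These shares lie near the 10.4% and 17.5% of all tested genes. Except for Ppp3ca, the genes named below from these lists were picked for groups without overlap and the smallest p. The lack of overlap is therefore not a result about them.

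Among the genes that supply co-agonist, 8 of 13 had a higher and 5 a lower mean in the MA group. Gldc, a subunit of the glycine cleavage system, and Phgdh, the first enzyme of serine synthesis, were lower in every MA library, with log2 fold changes of -0.37 and -0.30 (limma adjusted p = 0.329 and 0.499). Of the 8 genes of glutamate supply and uptake, 5 had a lower mean. Slc17a8, a vesicular glutamate transporter, and Slc1a1, the neuronal uptake carrier, had log2 fold changes of -0.31 and -0.22 without overlap of the groups (limma adjusted p = 0.388 and 0.466).

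The 18 scaffold genes had 10 higher and 8 lower means. Shank1 and Shank3, which link the receptor complex to the actin skeleton, had log2 fold changes of 0.63 and 0.47 (limma adjusted p = 0.360 and 0.401). Their groups were barely apart. Shank1 was at 5.21 in control replicate 3 and at 5.21 in MA replicate 3, and Shank3 was at 4.77 in both, while MA replicates 1 and 2 lay between 5.14 and 5.89 for these genes. Of the 9 trafficking genes, 4 had a higher and 5 a lower mean, and the groups overlapped for all 9.

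Among kinases and phosphatases of the receptor, 21 of 28 genes had a lower mean in the MA group (75.0%, against 52.7% of all tested genes), with a median log2 fold change of -0.08. Of these 28, 1 had an unadjusted p under 0.05, Ppp3ca, with a log2 fold change of -0.31 and overlap of the groups (limma adjusted p = 0.420). Ppp2ca, a phosphatase catalytic subunit, and Yes1, a Src family kinase, had groups that did not overlap, with log2 fold changes of -0.11 and 0.16 (limma adjusted p = 0.660 and 0.663). Among the 14 auxiliary and modulatory proteins, 8 had a higher and 6 a lower mean. Ephb1, an ephrin receptor of the synapse, was at 2.93, 3.11 and 3.15 in control replicates 1, 2 and 3 and at 2.68, 2.39 and 2.62 in MA replicates 1, 2 and 3. All MA libraries were below all control libraries, and the log2 fold change of -0.50 had the lowest adjusted p of the genes named from these lists (limma adjusted p = 0.219). Ephb2, its relative that binds GluN1, had a log2 fold change of -0.14 (limma adjusted p = 0.682).

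Of the 14 downstream effectors, 6 had a higher and 8 a lower mean. Creb1, the transcription factor that answers calcium entry, was at 2.78, 2.69 and 2.99 in control replicates 1, 2 and 3 and at 2.58, 2.29 and 2.26 in MA replicates 1, 2 and 3 (log2 fold change -0.44, limma adjusted p = 0.323). Nsmf, which carries receptor signals to the nucleus, was higher in every MA library, with a log2 fold change of 0.19 (limma adjusted p = 0.417). Among 10 regulators of subunit genes, 3 had a higher and 7 a lower mean. Rcor1, the corepressor partner of REST, and Sp3 had log2 fold changes of -0.23 and -0.29 without overlap of the groups (limma adjusted p = 0.458 and 0.519).

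**Figure D5:**
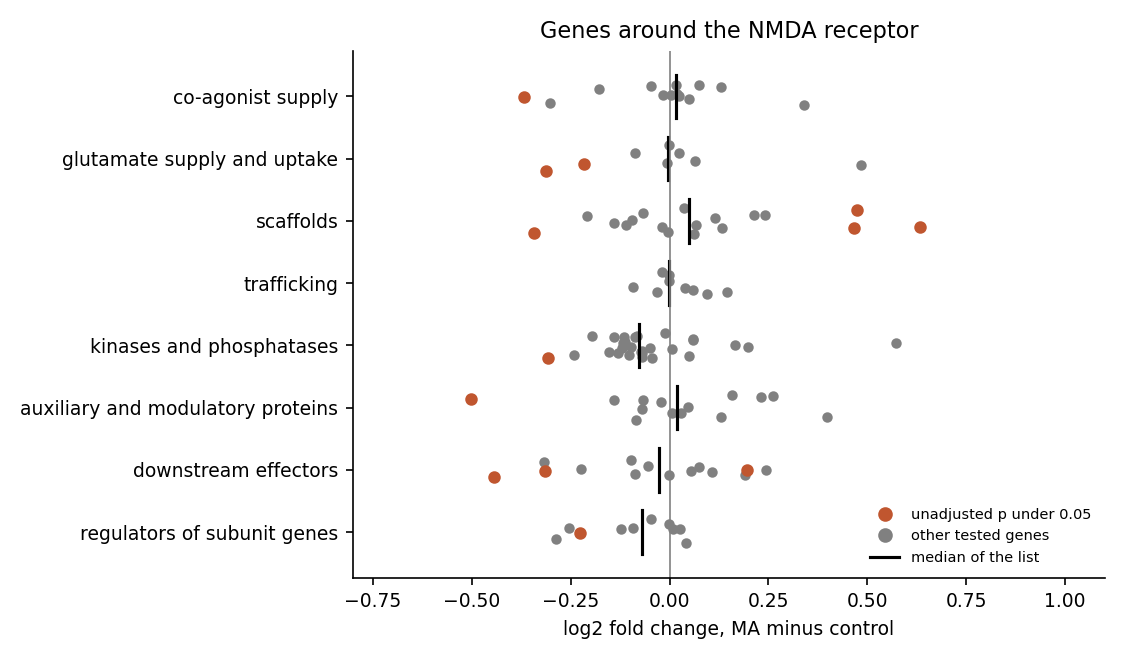
Log2 fold changes (MA minus control, horizontal axis) of the 114 tested genes in 8 lists around the NMDA receptor, with 1 point per gene and a black line at the median of each list. Orange points have an unadjusted p under 0.05 (limma), 13 in all, and the medians lie between -0.08 and 0.05.

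The genes whose levels followed each member most closely over the 6 libraries were found by Pearson's r among all other tested genes. They were Psmc3 (r = 0.986) and Kcnk4 (0.982) for Grin1, and Slc4a7 (0.995) and Tigar (0.992) for Grin2a. For Grin2b they were Fbxo5 (0.985) and Suv420h1 (0.978), for Grin2c Inpp5k (0.995) and Acad8 (0.992), for Grin2d Rxrg (0.988) and Ubqln2 (0.987), and for Grin3a Ndrg2 (0.995) and Ppargc1a (0.992). The number of genes with r over 0.95 ran from 12 for Grin1 to 168 for Grin3a. These values describe 6 libraries that share the group structure and the departure of MA replicate 3, and high values arise easily among so many genes.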

How the data were processed

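According to their methods, the authors used Hisat2 for alignment and featureCounts for counting, followed by scaling to gene length, whereas the submitters' processing notes list Bowtie 0.12.2 and the builds mm8 and mm9. The deposited values carry the name RPKM but lie on a log scale, read as log2 with an inferred offset of 1. When each library's values are sorted, the 6 libraries differ by at most 0.051 at any of the 16060 ranks, so they had been brought to a common distribution. A value therefore reflects a gene's rank in its library, and a shift common to all genes cannot be seen. Neither step is described in the sources used here, and depth is unknown. Back-transformed levels are 2 to the power of the value, minus 1. Genes were tested where the back-transformed level reached 0.5 in 3 or more of the libraries, with limma 3.58.1 (R 4.3.3, eBayes with trend, no covariate), adjusted by Benjamini-Hochberg over 13321 genes. The test was checked on simulated data with independent genes and, for each gene, the same spread in all libraries. The changes placed in them were larger than the log2 fold change of any member. Such data lack the departure of MA replicate 3, so the check does not cover it. No source gives a batch or says how many mice made up a library, so p-values measure only the spread between these 6 libraries.

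The members and the gene lists were chosen with earlier results of these data known. Genes named were the members, 2 genes per pathway list with the smallest p and no overlap of the groups, the most abundant marker and any called marker of each cell type, the 2 closest patterns per member, and Grin3b, Gria2 and Grik2 as relatives. A further gene of the rule is not reported here. Individual values of further markers that define a tissue (Neurod6, Wfs1, Prox1, Gabra6, Fat2, Cbln3, Zic1, Zic2, Cbln1 and Tcf7l2) were added after the values were seen. The value of Ppp3ca was added likewise. Coordinates and exonic lengths are those of GENCODE M21 on GRCm38, for location only, matched on the Ensembl identifier (15987 of 16031 found). Rack1 stands in the table under an older symbol and was matched by identifier. The replicate number entered only as an alternative. Other alternatives were filters, pseudocounts, scaling, sample weights and leaving out each library.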

Additional observations from a re-analysis of the deposited data

How the results depend on the processing

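The count of 35 genes past the adjusted threshold (limma) became 20 with a minimum mean of 5, 3 with no filter and 586 with sample quality weights. Across the fits that omitted a single library it ranged from 0 to 257, with the highest without MA replicate 3. Deviations of same-numbered libraries correlated at -0.197, -0.242 and -0.337, which gave no sign of pairing by number. With the replicate block the count was 15, and with the block and the length and GC correction, chosen after seeing the data, it was 8. In these settings none of the 6 subunit genes passed the threshold, with limma adjusted p-values no lower than 0.115. Directions of Grin1, Grin2a, Grin2c, Grin2d and Grin3a held in every alternative run for them. Grin2d and Grin3a fell under the minimum mean of 5. Leaving out 1 library gave log2 fold changes of -0.10 to -0.03 for Grin1, -0.45 to -0.25 for Grin2a, -0.46 to 0.034 for Grin2b, 0.058 to 0.25 for Grin2c, 0.15 to 0.40 for Grin2d and 0.042 to 0.40 for Grin3a. Only the Grin2b value reversed, without MA replicate 3, and with sample quality weights it was -0.0038. Grin2a minus Grin2b, as MA minus control, ran from -0.34 to 0.065 and reversed when MA replicate 1, MA replicate 2 or else the first control was omitted. With the replicate block its exact sign-flip permutation test gave p = 0.75, and the block changed no adjusted call of a member, while the unadjusted p of Grin2a became 0.0558 (limma).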

Other observations

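Grin3b, the seventh subunit gene, which encodes GluN3B and is known from motor neurons, fell under the filter and was not tested. Its level lay between 0.06 and 0.40 in the control and between 0.14 and 0.19 in the MA libraries, and Tmem259 on the other strand shares 1059 exonic bases with it. Among relatives of the NMDA receptor genes, Gria2, the AMPA receptor gene that sets calcium permeability, was at 6.29, 6.07 and 6.39 in control replicates 1, 2 and 3 and at 6.48, 6.51 and 5.52 in MA replicates 1, 2 and 3. As with Grin2b, MA replicate 3 held its lowest value. The log2 fold changes of Gria2 and the kainate receptor gene Grik2 were -0.08 and -0.13 (limma adjusted p = 0.946 and 0.719).

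Among the remaining cell type lists, 7 of 8 oligodendrocyte markers had a lower mean in the MA group, while Mbp, the most abundant, had a log2 fold change of 0.11 (limma adjusted p = 0.740). Means were higher for 4 of 6 precursor markers, led in level by Olig1, 4 of 8 microglia markers, led by C1qa, and 7 of 8 endothelial markers, led by Ly6c1. In these 4 lists 0 genes passed the adjusted threshold, and 3 had an unadjusted p under 0.05 (limma). Over all tested genes, 52.7% had a lower mean and 10.4% reached that unadjusted p. Of the 7 cerebellar markers, 4 were tested and 3 of them had a higher mean, with Neurod1 the most abundant. All 7 erythrocyte markers had a higher mean, and 3 of them passed the threshold.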
